A study of Homo sapiens with 6 samples.

Results

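Proteasome subunits and their assembly factors were examined in tumours of U87-EV, a line of the human glioblastoma cell line U87, after bevacizumab, an antibody that binds vascular endothelial growth factor A (VEGF). The members were all genes whose array annotation gave a single symbol starting with PSMA, PSMB, PSMC, PSMD, PSME, PSMF or PSMG. Antisense and divergent noncoding genes and pseudogenes were left out. This rule took 87 of 54675 probe sets and 44 of the 19775 genes that had an unshared probe set. Of these 44 genes, 42 encode parts or helpers of the proteasome. PSMC3IP and PSME3IP1 met the naming rule but are not proteasome parts, and were kept apart. PSMC3IP acts in homologous recombination, and PSME3IP1 binds the activator PSME3. Of 50 genes listed under these names, PSMA6 and PSME2 had only probe sets in common with another gene and, like PSMB11, PSMC5, PSMD7 and PSMD13, were not analysed here.

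The proteasome destroys proteins that carry a chain of ubiquitin. Its barrel-shaped core has outer rings of alpha subunits (PSMA) that gate the entrance and inner rings of beta subunits (PSMB), of which PSMB5, PSMB6 and PSMB7 cut peptide bonds. A cap on the barrel recognises the ubiquitin chain, removes it with the lid enzyme PSMD14, and unfolds and threads the protein with a ring of ATPases (PSMC). In cells exposed to interferon gamma, PSMB8, PSMB9 and PSMB10 take the places of PSMB5, PSMB6 and PSMB7 and form the immunoproteasome, which makes peptides suited to MHC class I molecules. Transcription of most subunit genes is raised by NFE2L1 when proteasome activity is short. Proteasome inhibitors have been tried against glioblastoma.

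The 3 bevacizumab arrays came from mice dosed with 10 mg/kg into the peritoneum at intervals of 3 days, and the 3 control arrays from mice given saline. All mice were female BALB/c SCID animals aged 6 to 8 weeks at implantation, a strain without mature T and B cells that keeps macrophages and natural killer cells. U87 cells were placed under the skin with Matrigel, dosing began at 150 to 200 mm3 and lasted until tumours were roughly 15 to 30 mm wide, and each group began with 5 mice. The meaning of EV is not given in the sources used here, nor is it stated that each array stands for its own mouse, so the p-values rest on a spread among arrays that may be technical. The labelled glial origin could not be read from every marker, since GFAP, S100B and OLIG2 were under 4 on all 6 arrays, while VIM, CD44 and NES were measured. Whole tumours were profiled, and fewer cells of a type cannot be told apart from less RNA per cell. Mouse RNA was not separated from human RNA.

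All values are the deposited GCRMA values on the log2 scale, where a difference of 1 is a doubling. The array medians lay between 2.49 and 2.51 and profiles correlated at 0.992 or more within groups and 0.986 to 0.993 between them, taken across probe sets, which are not independent replicates. Each gene is represented by its brightest probe set, and 43 of the 44 members had a mean of at least 4 over all arrays and were tested together with all other such genes. The testis gene PSMA8, whose product replaces an alpha subunit in germ cells, lay at the bottom of the scale (2.23) on every array and was not tested. The ACTB 3' to 5' difference, a sign of RNA degradation, was 1.94, 1.86 and 1.64 on the bevacizumab arrays and 1.14, 1.33 and 1.66 on the control arrays (difference 0.43, two-sided exact permutation p = 0.2, smallest possible 0.1). The same measure for GAPDH was -0.059, -0.011 and 0.0069 on the bevacizumab arrays and -0.11, -0.11 and -0.14 on the control arrays, with separate groups (difference 0.095, exact permutation p = 0.1). The part of GAPDH's difference in the proteasome values was not tested, and a fit with the ACTB difference is given with the counts.

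Transcripts of the proteasome were lower in bevacizumab tumours across the core, the cap and part of the assembly machinery, by a modest amount that was similar on each array. Of the 41 proteasome genes tested, 20 fell, none rose and 21 did not pass (limma, adjusted p under 0.05 over all genes). The median log2 fold change was -0.35, or 1.28-fold lower, against -0.011 over all 10233 genes tested. Over all genes, 9.97% were called lower, 9.09% higher and 19.1% in either direction, and 13.7% of the genes with a mean of at least 10 were called lower. With PSMC3IP and PSME3IP1 included, 22 of 43 members fell. At an unadjusted p under 0.05, 27 of the 41 were lower and none higher, against 1890 lower and 1774 higher of all 10233 genes. The bevacizumab arrays lay wholly below the control arrays for 30 of the 41 genes, which was so for 22.0% of all genes, and wholly above them for none.

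The median of the 41 genes, each taken relative to its control mean, was -0.34, -0.38 and -0.34 on bevacizumab 1, 2 and 3, against -0.041, -0.015 and 0.047 on control 1, 2 and 3. No bevacizumab array stood apart from the other 2 in this shift. The number of calls was less steady. Set against the 22 members that fell in the fit of all arrays, 14, 8 and 12 fell without bevacizumab 1, 2 or 3, and 5, 4 and 7 without control 1, 2 or 3. The share of all genes called lower shrank too, from 9.97% with all arrays. It was 9.13%, 4.94% and 7.19% without bevacizumab 1, 2 or 3, and 2.69%, 2.56% and 3.69% without control 1, 2 or 3. Over the whole array, 1950 genes passed in either direction with all arrays. Without 1 array the most were 2074, without bevacizumab 1, and the fewest 558, without control 2. With the ACTB 3' to 5' difference as a covariate no member passed in limma, against 24 genes of the whole array. In that fit the median of the 41 genes was -0.43, against -0.033 over all genes. Of the 41, 36 had a negative difference and 22 had an unadjusted p under 0.05. Those 2 counts over all genes are not given here.

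**Figure D1:**
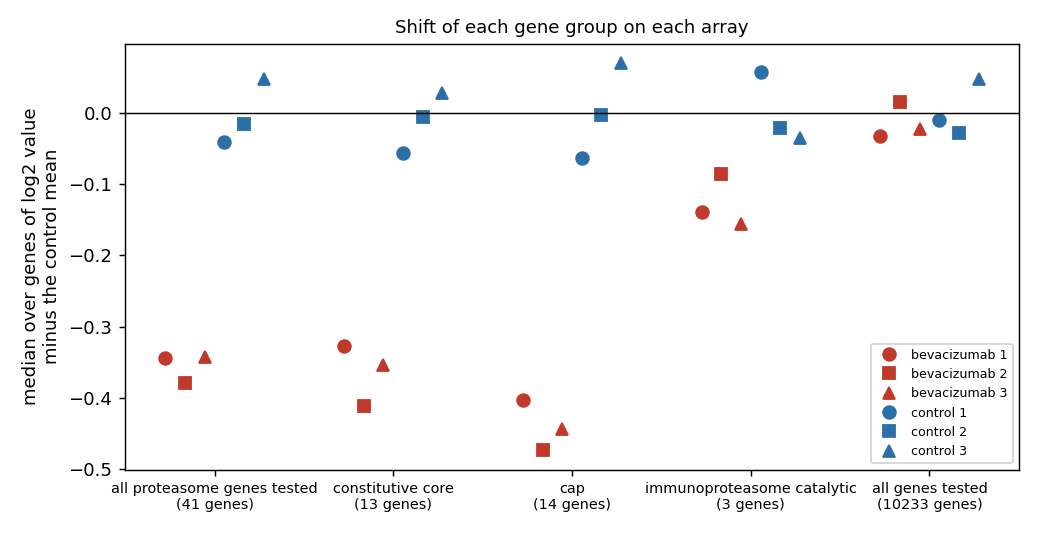
Median over the genes of each group of the log2 value minus the gene's control mean (vertical axis), for each of the 3 bevacizumab arrays (red) and 3 control arrays (blue). Constitutive core and cap genes lie between -0.33 and -0.47 on the bevacizumab arrays, immunoproteasome genes between -0.086 and -0.16, and all genes tested near 0.

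The 4 members that passed in each of the 6 fits leaving out an array were PSMC3, PSMA5, PSMB3 and PSMD6, 1 each from the ATPase ring, the alpha ring, the beta ring and the lid. Their promoters are shown, together with those of the immunoproteasome genes PSMB9 and PSMB10, as the 250 bases before the start of the gene, 5′ to 3′ on the gene's own strand, from RefSeq on GRCh38.p14. Capitals mark matches to TGACNNNGC, the core of the antioxidant response element that NFE2L1 and NFE2L2 bind, to CCAAT, the NF-Y box, and to GAAANNGAA, the core of an interferon response element, on either strand. No matches overlapped in these 6 promoters.
PSMC3 (chr11:47426440-47426689, minus strand): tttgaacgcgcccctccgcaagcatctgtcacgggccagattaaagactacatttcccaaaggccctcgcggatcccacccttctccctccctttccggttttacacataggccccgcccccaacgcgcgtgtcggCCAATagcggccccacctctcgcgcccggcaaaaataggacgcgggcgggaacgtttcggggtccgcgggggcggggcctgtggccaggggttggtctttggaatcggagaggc
PSMA5 (chr1:109426449-109426698, minus strand): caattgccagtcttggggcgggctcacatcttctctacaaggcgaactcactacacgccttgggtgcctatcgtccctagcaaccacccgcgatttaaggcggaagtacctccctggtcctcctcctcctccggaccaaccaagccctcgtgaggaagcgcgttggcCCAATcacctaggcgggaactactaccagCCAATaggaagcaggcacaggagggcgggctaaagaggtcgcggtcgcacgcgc
PSMB3 (chr17:38752491-38752740, plus strand): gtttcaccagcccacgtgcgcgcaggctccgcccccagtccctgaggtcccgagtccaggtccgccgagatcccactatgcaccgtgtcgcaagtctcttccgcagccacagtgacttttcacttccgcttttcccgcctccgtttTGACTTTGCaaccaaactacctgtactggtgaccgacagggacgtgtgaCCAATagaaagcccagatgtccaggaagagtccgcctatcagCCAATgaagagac
PSMD6 (chr3:64023495-64023744, minus strand): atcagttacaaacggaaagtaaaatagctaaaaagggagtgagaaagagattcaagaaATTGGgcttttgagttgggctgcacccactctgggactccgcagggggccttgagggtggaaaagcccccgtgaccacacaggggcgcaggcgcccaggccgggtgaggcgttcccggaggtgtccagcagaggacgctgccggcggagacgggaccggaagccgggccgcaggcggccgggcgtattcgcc
PSMB9 (chr6:32853942-32854191, plus strand): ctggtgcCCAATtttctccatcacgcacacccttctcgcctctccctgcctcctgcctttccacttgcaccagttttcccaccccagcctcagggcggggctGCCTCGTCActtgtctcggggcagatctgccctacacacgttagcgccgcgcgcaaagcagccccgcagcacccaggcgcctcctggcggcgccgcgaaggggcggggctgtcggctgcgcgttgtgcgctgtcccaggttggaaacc
PSMB10 (chr16:67936851-67937100, minus strand): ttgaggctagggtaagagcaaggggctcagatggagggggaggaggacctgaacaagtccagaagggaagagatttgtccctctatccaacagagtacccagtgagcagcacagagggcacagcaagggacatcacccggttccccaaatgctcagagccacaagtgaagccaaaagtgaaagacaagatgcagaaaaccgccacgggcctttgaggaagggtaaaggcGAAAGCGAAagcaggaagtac

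All 4 stable members held a CCAAT box, and PSMB3 also held the antioxidant element. PSMB9 held a CCAAT box and the antioxidant element as well. PSMB10 held the interferon element 21 bases before its start and neither of the others. Promoter sequence was matched for 38 of the 44 members. A CCAAT box stood in 42.6% of the 47 member promoters and in 32.0% of all 35116 promoters. Counted by gene, with a match at any start, it stood in 13 of 19 members that fell. It also stood in 5 of 19 that did not pass or were not tested. The 13 included PSMC3IP and PSME3IP1, which are not proteasome parts, and 8 members had several starts. The antioxidant core stood in 23.4% of member promoters and 10.9% of all, in 4 of the 19 that fell and 7 of the other 19. The interferon core stood in 8.51% and 6.88%, in none of the 19 that fell and 4 of the other 19. The shares over all promoters are counted by promoter, and no share by gene over all genes is given here. The splits by gene therefore have no background, and a link between any motif and the fall was not tested. These are letter matches in a short window, and binding was not measured.

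Among the 4 stable members, PSMC3, an ATPase of the cap base, changed most. It read 10.87, 10.62 and 10.54 on bevacizumab 1, 2 and 3, against 11.73, 11.53 and 11.51 on control 1, 2 and 3. All bevacizumab arrays were below all controls, and the fall of 0.91 (SE 0.12, limma adjusted p = 0.0079) is 1.88-fold. It has a single probe set. PSMA5, an alpha ring subunit, read 10.98, 11.01 and 10.90 after bevacizumab, against 11.66, 11.83 and 11.67 in controls. It fell by 0.76 (SE 0.089, adjusted p = 0.0061), and its second probe set differed by -0.99.

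The structural beta subunit gene PSMB3 read 11.46, 11.60 and 11.41 after bevacizumab, against 12.17, 12.11 and 12.15 in controls, a fall of 0.65 (SE 0.087, limma adjusted p = 0.0079). PSMD6, a scaffold subunit of the lid, read 11.12, 11.16 and 11.11, against 11.70, 11.78 and 11.74 in controls. Arrays of the same group lay close together, and the fall was 0.61 (SE 0.076, adjusted p = 0.0067). In both genes every bevacizumab array was below every control array.

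**Figure D2:**
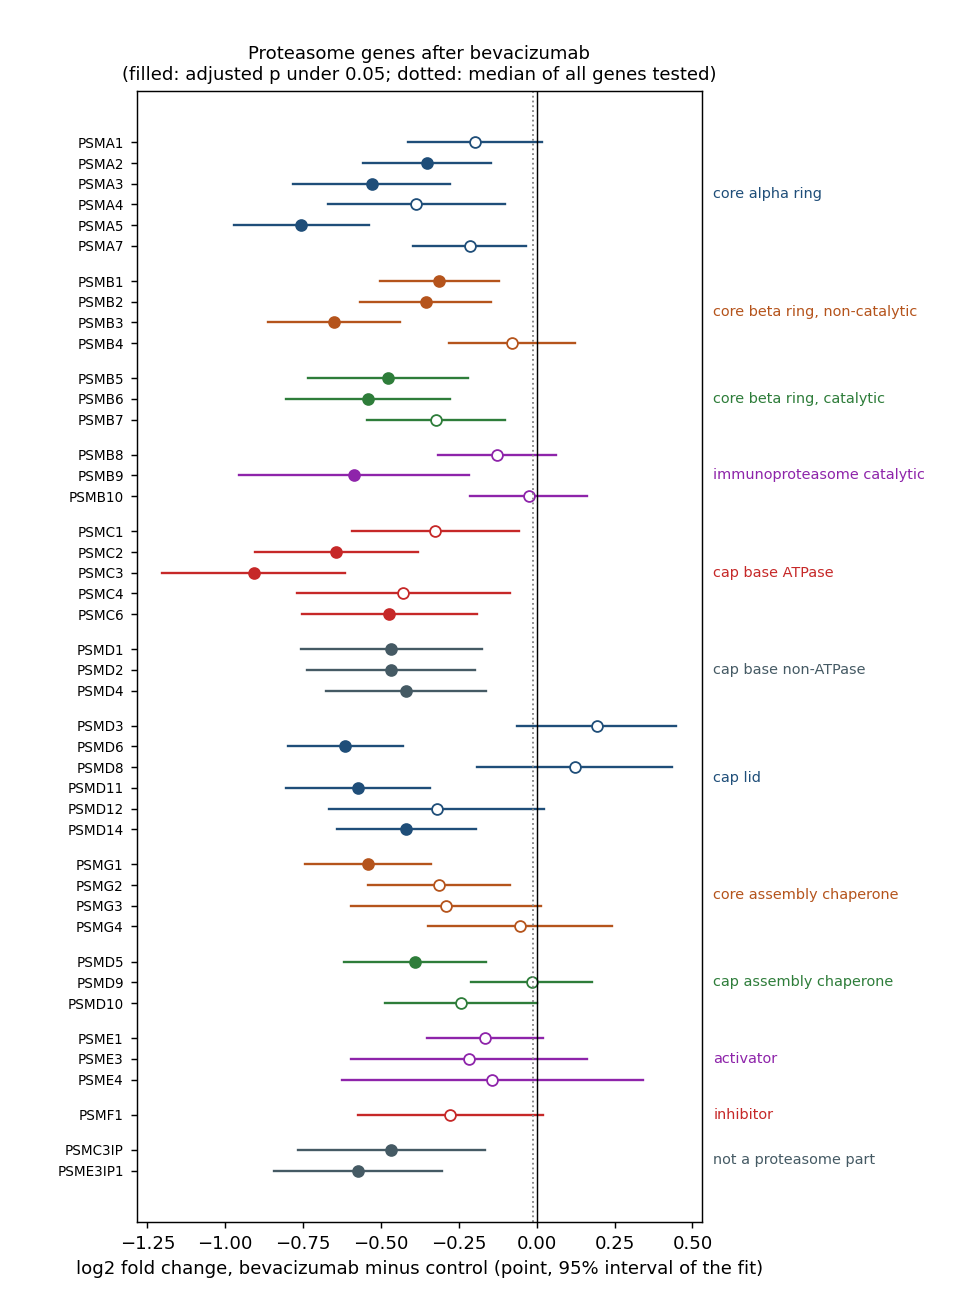
Log2 fold change of bevacizumab against control (horizontal axis) with its 95% interval for the 43 members tested, grouped by role, with filled points at an adjusted p under 0.05. Nearly all points lie left of 0, the lowest is PSMC3 at -0.91, and only the lid genes PSMD3 and PSMD8 lie right of it.

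The constitutive core comprised 13 measured genes, of which 8 fell and none rose, where 9.97% of all genes fell. All 13 differences were negative and their median was -0.36. In the alpha ring 3 of 6 fell. Besides PSMA5, PSMA3 fell by 0.53 (12.55, 12.44 and 12.34 after bevacizumab, against 12.84, 13.00 and 13.07 in controls) and PSMA2 by 0.35. The alpha subunit genes that did not pass, PSMA1 (-0.20), PSMA4 (-0.39) and PSMA7 (-0.22), also had separate groups, with adjusted p of 0.166, 0.0681 and 0.0960. In the structural part of the beta ring PSMB1 (-0.31) and PSMB2 (-0.36) fell with PSMB3. A second bright probe set of PSMB1 differed by -0.15 with overlapping groups. PSMA3 passed in 2 of the 6 fits without an array, and PSMA2, PSMB1 and PSMB2 each in 0. PSMB4 differed by -0.078 with overlapping groups (95% interval -0.28 to 0.12), and its 2 dimmer probe sets by -0.32 and -0.31.

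The catalytic subunits of the constitutive core were lower too. PSMB5, the chymotrypsin-like subunit and the main target of bortezomib, read 10.33, 10.35 and 10.48 after bevacizumab, against 11.03, 10.79 and 10.78 in controls. It fell by 0.48 (SE 0.11, limma adjusted p = 0.0296). PSMB6, the caspase-like subunit, read 11.07, 11.26 and 11.18, against 11.86, 11.58 and 11.69 in controls, and fell by 0.54 (SE 0.11, adjusted p = 0.0228). The groups did not overlap in either gene, and PSMB5 passed in 1 and PSMB6 in 2 of the 6 fits without an array. PSMB7, the trypsin-like subunit, read 12.68, 12.51 and 12.61, against 12.83, 12.93 and 13.00 in controls. Its difference of -0.32 did not pass (adjusted p = 0.0571), and a dim second probe set differed by 0.62 with overlapping groups.

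Of the immunoproteasome subunits, 1 of 3 fell, where 9.97% of all genes fell, and the median was -0.13. PSMB9 read 9.30, 9.12 and 8.79 after bevacizumab, against 9.55, 9.62 and 9.80 in controls. It fell by 0.59 (SE 0.15, limma adjusted p = 0.0450), with bevacizumab 3 the lowest, and passed in 1 of the 6 fits without an array. PSMB8 read 8.96, 9.01 and 8.94, against 9.16, 9.08 and 9.06 in controls. Its groups were separate but close, and the difference of -0.13 (95% interval -0.32 to 0.063) did not pass. PSMB10 read 9.65, 9.65 and 9.66, against 9.74, 9.66 and 9.64 in controls, a difference of -0.026 (95% interval -0.21 to 0.16) with overlapping groups.

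Each immunoproteasome gene was set against the constitutive gene whose place its product takes, by the log2 ratio within each array, together with the activator pair PSME1 and PSME3. The ratio of PSMB8 to PSMB5 was 0.35 higher in bevacizumab arrays than in controls and that of PSMB10 to PSMB7 was 0.30 higher, with separate groups in both (two-sided exact permutation p = 0.1 each, the smallest possible with 3 arrays against 3, and adjusted p = 0.2 over the 4 pairs). The ratio of PSMB9 to PSMB6 differed by -0.044, with overlapping groups (exact permutation p = 0.9, adjusted p = 0.9). PSME1 to PSME3 differed by 0.049 (exact permutation p = 0.8, adjusted p = 0.9), a value that depends on the probe set standing for PSME3. With all probe sets of a gene averaged it was 0.39 higher in bevacizumab arrays, and with probe sets of the suffix x left out, a setting added after the values were seen, 0.73 higher, with separate groups in both (exact permutation p = 0.1 each). The design cannot reach p under 0.1, so no ratio could pass. With probe sets averaged in the same way, the ratio of PSMB10 to PSMB7 was -0.17, in the opposite direction.

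**Figure D3:**
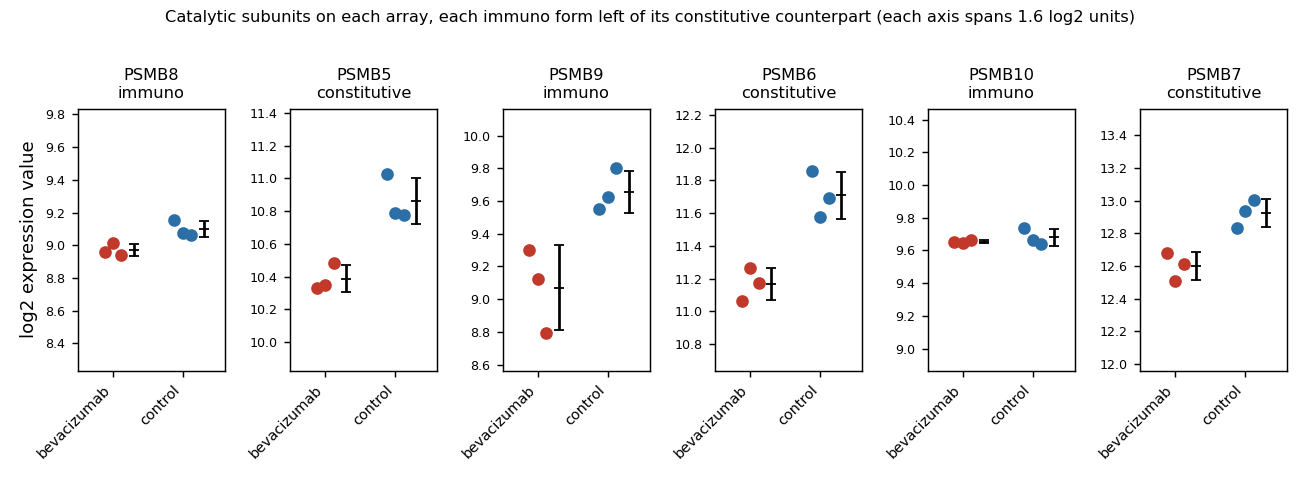
Log2 expression value (vertical axis, each spanning 1.6 units) of the 6 catalytic subunit genes on the 3 bevacizumab arrays (red) and 3 control arrays (blue), with the mean and SD of each group in black. PSMB8 and PSMB10 differ by -0.13 and -0.026, while PSMB5, PSMB6, PSMB7 and PSMB9 differ by -0.48, -0.54, -0.32 and -0.59.

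In the cap 9 of 14 measured genes fell, where 9.97% of all genes fell, and the median was -0.45. Of the ATPases that form the unfolding ring, 3 of 5 fell. Besides PSMC3, PSMC2 read 12.60, 12.36 and 12.34 after bevacizumab, against 13.03, 13.01 and 13.18 in controls, a fall of 0.64 (SE 0.11, limma adjusted p = 0.0139) with 3 of 3 probe sets negative. PSMC6 fell by 0.47 and passed in 1 of the 6 fits without an array, while PSMC2 passed in 4. PSMC4 (-0.43, adjusted p = 0.0827) and PSMC1 (-0.32, adjusted p = 0.0896) did not pass, although their groups were separate. All 3 base subunits outside that ring fell by like amounts. PSMD1 and PSMD2, the large scaffold subunits, fell by 0.47 each, and the ubiquitin receptor gene PSMD4 by 0.42. PSMD1 and PSMD4 each passed in 1 of the 6 fits without an array, and PSMD2 in 0.

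In the lid 3 of 6 measured genes fell, where 9.97% of all genes fell: PSMD6, PSMD11 and PSMD14. PSMD11, a scaffold subunit, read 11.21, 11.07 and 10.96 after bevacizumab, against 11.65, 11.62 and 11.68 in controls, a fall of 0.57 (SE 0.095, limma adjusted p = 0.0136). PSMD14, which encodes the deubiquitinase, fell by 0.42 (12.01, 11.87 and 11.83, against 12.24, 12.33 and 12.39 in controls). PSMD11 passed in 4 and PSMD14 in 1 of the 6 fits without an array. PSMD12 differed by -0.32 with overlapping groups. The other lid genes were the only members with a positive difference: PSMD3 (0.19, 95% interval -0.062 to 0.45) and PSMD8 (0.12, 95% interval -0.19 to 0.44). PSMD3 read 9.62, 9.87 and 9.87, against 9.56, 9.68 and 9.54 in controls, and PSMD8 read 11.57, 11.77 and 12.02, against 11.67, 11.61 and 11.71 in controls. Their groups overlapped, and neither passed.

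Of the 7 assembly chaperones, 2 fell, where 9.97% of all genes fell, and the median was -0.29. PSMG1, which with PSMG2 guides the alpha ring, read 10.56, 10.51 and 10.65 after bevacizumab, against 11.07, 11.12 and 11.16 in controls. It fell by 0.54 (SE 0.083, limma adjusted p = 0.0110) and passed in 5 of the 6 fits without an array. PSMG2 read 11.61, 11.70 and 11.84, against 11.99, 12.01 and 12.09 in controls, with separate groups (-0.31, adjusted p = 0.0653). PSMG3 (8.09, 8.43 and 8.33, against 8.69, 8.61 and 8.42 in controls) and PSMG4 (9.60, 9.54 and 9.79, against 9.63, 9.58 and 9.89 in controls) help the same step, and their groups overlapped.

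The remaining chaperones help to build the ATPase ring of the cap. PSMD5 read 9.04, 9.20 and 9.09 after bevacizumab, against 9.61, 9.41 and 9.48 in controls, and fell by 0.39 (SE 0.094, limma adjusted p = 0.0371), a call that was lost in all 6 fits without an array. PSMD9 read 10.46, 10.52 and 10.59, against 10.51, 10.55 and 10.56 in controls, with overlapping groups and a difference of -0.016. PSMD10, also known as the oncoprotein gankyrin, read 11.39, 11.62 and 11.37, against 11.72, 11.64 and 11.76 in controls. Its groups were separate, but the difference of -0.24 did not pass (adjusted p = 0.139), while its dimmer probe set differed by -0.61 (adjusted p = 0.0389 in the fit of all probe sets).

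None of the 3 measured activators passed, and neither did the inhibitor, at 0 of 4 genes by limma and 0 of 4 at an unadjusted p under 0.05. Over all genes, 19.1% passed in limma. PSME1, an interferon-inducible activator subunit that works with the immunoproteasome, read 10.64, 10.69 and 10.59 after bevacizumab, against 10.82, 10.82 and 10.78 in controls, with separate groups and a difference of -0.17 (95% interval -0.35 to 0.019). PSME4, an activator of nuclear proteasomes, read 9.16, 8.71 and 8.41, against 8.84, 8.81 and 9.05 in controls, with bevacizumab 1 the highest of all 6 arrays; its dimmer probe sets differed by -0.47 and -0.96 and did not pass. PSMF1, which inhibits the core in the test tube, read 9.28, 9.07 and 9.01, against 9.36, 9.26 and 9.57 in controls, with overlapping groups, and its dimmer probe set differed by -0.44 with separate ones (adjusted p = 0.0837 in the fit of all probe sets).

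PSME3, which encodes the nuclear activator of the core, gave different answers by probe set. The brightest of its 4 probe sets read 8.94, 9.35 and 9.37 after bevacizumab, against 9.50, 9.57 and 9.24 in controls, with overlapping groups and a difference of -0.22. The next brightest read 8.61 on all 3 bevacizumab arrays, against 9.61, 9.72 and 9.41 in controls, a difference of -0.97 (adjusted p = 0.00654 in the limma fit of all probe sets). The third differed by -0.89 (adjusted p = 0.0142) and the dimmest by -0.15. The names of both brighter probe sets carry the suffix x, by which Affymetrix marks probes that can match other transcripts, and without such probe sets PSME3 fell by 0.89 (adjusted p = 0.0106). That setting was chosen after the values were seen.

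Over all members, 72 of the 87 probe sets had a mean of at least 4, and 68 of those were lower after bevacizumab. In the fit of all 18469 such probe sets 24 of the 72 fell and none rose, against 7.98% called lower over the whole array. Of the 19 members with more than 1 such probe set, 17 had every one of them lower. The exceptions were PSMB2, where a dimmer probe set differed by 0.18, and PSMB7. Of the 2 genes kept apart, PSME3IP1 fell by 0.57 with 4 of 4 probe sets lower, and PSMC3IP fell by 0.47. PSME3IP1 passed in 2 and PSMC3IP in 0 of the 6 fits without an array. PSME3IP1 read 9.75, 9.55 and 9.72 after bevacizumab, against 10.41, 10.14 and 10.20 in controls.

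**Figure D4:**
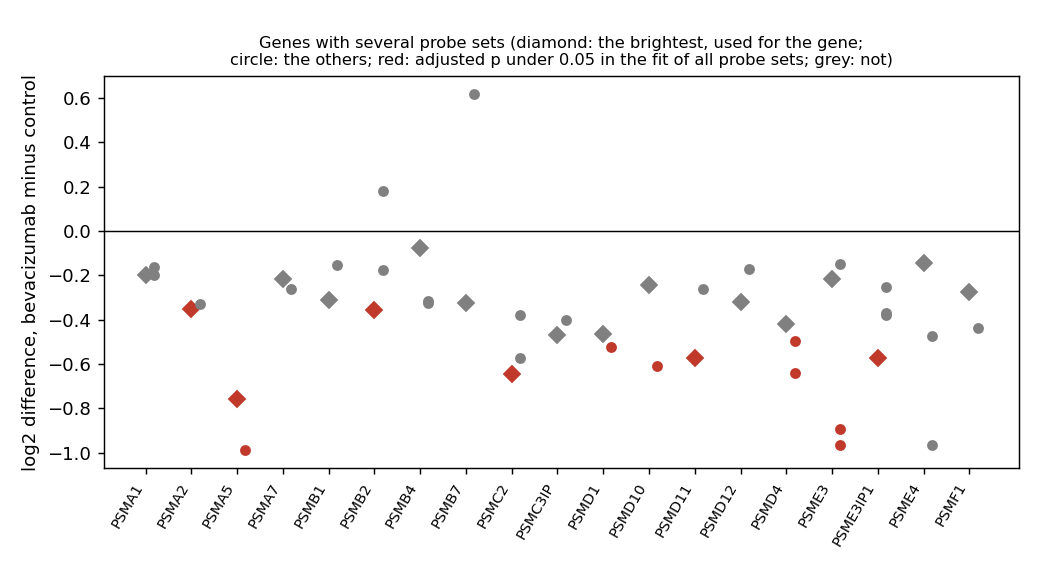
Log2 difference of bevacizumab against control (vertical axis) of each probe set with a mean of at least 4, for the 19 members with more than 1. Diamonds are the brightest probe set of the gene and circles the others, red where the adjusted p is under 0.05 in the fit of all probe sets. PSME3 spans -0.15 to -0.97, and PSMB7 has 1 probe set at 0.62.

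Genes that work with the proteasome were counted in 4 lists. Of 12 other parts and cofactors, 2 fell, none rose and 8 had a negative difference; the median was -0.13, and 9.97% of all genes fell. POMP, which matures the core, fell by 0.43 (12.07, 11.87 and 11.92 after bevacizumab, against 12.24, 12.38 and 12.55 in controls; limma adjusted p = 0.0466), and UCHL5, a deubiquitinase of the cap, fell by 0.51. The cap subunit gene SEM1 (-0.38, adjusted p = 0.0901), the ubiquitin receptor gene ADRM1 (-0.16) and TXNL1 (-0.20), a cap-bound thioredoxin-like protein, did not pass.

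Of 7 regulators tested, 3 rose and none fell, where 9.09% of all genes rose. NFE2L1, the factor that raises subunit transcription, read 10.18, 10.67 and 10.56 after bevacizumab, against 9.65, 9.22 and 9.76 in controls. It rose by 0.93 (SE 0.19, limma adjusted p = 0.0256) with separate groups. NGLY1, the glycanase that processes the NFE2L1 protein, rose by 0.48 (10.32, 10.29 and 10.34, against 9.77, 9.90 and 9.82 in controls; adjusted p = 0.0134). STAT3 rose by 0.86. NFE2L2 differed by -0.10 and the NF-Y subunit gene NFYB by -0.33, and neither passed. Protein processing and factor activity were not measured.

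Of 10 measured genes for ubiquitin and its delivery to the proteasome, 1 fell and none rose, a share near the 9.97% of all genes that fell. The gene that fell was UFD1, a cofactor of the unfolding enzyme VCP, at -0.43 (limma adjusted p = 0.0240). The shuttle gene UBQLN2 (0.55) and the ubiquitin-activating enzyme gene UBA6 (0.55) had separate, higher groups, and the ubiquitin gene UBB (-0.25) separate, lower ones, and none of these passed. Of 10 measured genes of antigen presentation and interferon response, 4 rose, where 9.09% of all genes rose, and the median was 0.24. The other 6 did not pass, and 2 of the 10 had a negative difference. HLA-B rose by 0.68 and HLA-C by 0.59, both of which share much sequence with other class I genes, TAPBP, which loads peptides, by 0.91, and the interferon-response factor gene IRF1 by 0.65.

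**Figure D5:**
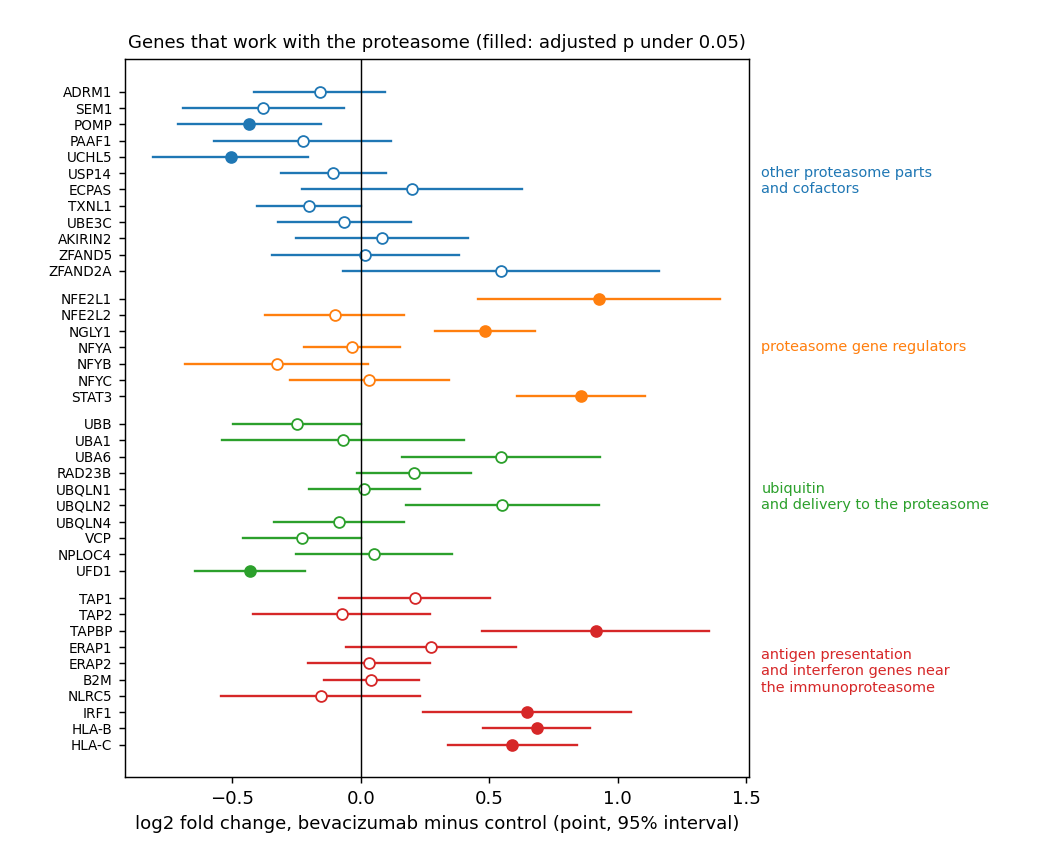
Log2 fold change of bevacizumab against control (horizontal axis) with its 95% interval for companion genes in 4 lists, with filled points at an adjusted p under 0.05. Regulators and antigen presentation genes past the threshold lie right of 0 (NFE2L1 at 0.93, TAPBP at 0.91), and POMP, UCHL5 and UFD1 lie left of it.

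Genes used as markers of cell types moved in part with the groups. Which cells, human or mouse, gave their signal was not determined. Of 11 measured leukocyte and macrophage genes, 8 were under 4 on every array, PTPRC, TYROBP and CD14 among them, and none passed; the log2 of the summed linear signal was 11.26 to 11.60 after bevacizumab, against 10.88 to 11.24 in controls, most of it from CD74 and HLA-DRA. Of 6 mural cell genes, RGS5 (-2.85) and ACTA2 (-1.79) fell, while PDGFRB (0.30), CSPG4 (0.16) and NOTCH3 (-0.51) had overlapping groups and did not pass, and MYH11 was under 4 throughout. Their summed signal, most of it from ACTA2 in the controls, was 11.79 to 11.96 after bevacizumab, against 13.05 to 13.39 in controls. None of 2 tested endothelial genes or 6 fibroblast genes passed, and CDH5, KDR and VWF were under 4 throughout. Their sums were 7.33 to 7.59 after bevacizumab, against 7.28 to 7.39 in controls, for endothelium and 15.98 to 16.23, against 16.00 to 16.11 in controls, for fibroblasts. Among glioma genes NES fell while CHI3L1 and EGFR rose. The part of these marker differences in the proteasome values was not tested.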

How the data were processed

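RNA of U87-EV tumours was measured on 3 bevacizumab and 3 control samples with 1-colour Affymetrix arrays. The authors deposited log2 expression values per probe set, made with GCOS 1.1.1.052 and GCRMA per the submitters' processing notes; base 2 was inferred from the value range and no scanner files were used. The platform annotation paired 41091 probe sets with 1 gene and 1801 with several, and did not list 11721; 62 array controls were set aside. Symbols were updated through the gene identifier for 41037. The brightest probe set stood for each of 19775 genes, and the 10233 with a mean of at least 4 entered a comparison in limma 3.58.1 under R 4.3.3 (lmFit, eBayes, no covariate), with two-sided p-values adjusted by Benjamini-Hochberg over all of them. Named members follow a fixed rule: the 10 largest changes past the threshold, the catalytic subunits, the activators and inhibitor, the chaperones, up to 4 genes of each companion list with the smallest p, and ADRM1, SEM1, POMP, NFE2L1 and NFE2L2 by name. Other genes are named only to complete a group. The members, gene lists and rule were chosen with earlier results of these data known. A planned ratio with PSME2 could not be run, so 4 pairs were adjusted together. The procedure was tested on simulated data. The number of arrays limits the precision, and no batch label was used. Of the other settings, 1 was added after the values were seen. Effects of all settings stand in the closing section.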

Additional observations from a re-analysis of the deposited data

How the results depend on the processing

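The count of members that fell (22) and of genes past the threshold over the whole array (1950) kept within 1.5 times their value with a filter at 6, values under 4 set to 4, probe sets averaged, quantile normalization, arrays centred on their median, an intensity trend, and probe sets with the suffix x left out, the last chosen after the values were seen. With every probe set tested the counts are of probe sets: 24 of members, from 21 genes, and 2851 in all. Without the filter on dim genes they were 8 and 598, with the ACTB 3' to 5' difference as a covariate 0 and 24, and with the replicate number as a block (replicate block) 4 and 904. Same-numbered arrays had correlations of -0.048, -0.012 and -0.053 in their deviations, and arrays of different number -0.21 to 0.23. With 3 arrays per group these values do not decide whether the numbers pair arrays. Leaving out 1 array gave 4 to 14 members and 558 to 2074 genes. The members passing under the block were PSMC3, PSMD6, PSMA5 and PSMB3. No member rose under any of these settings. The median of the 41 proteasome genes ran from -0.43 (ACTB covariate) to -0.33 (leave-one-out, without control 3), and that of all genes from -0.055 to 0.0057.

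Without 1 array, the ratio of PSMB9 to PSMB6 ran from -0.21 to 0.10 and that of PSME1 to PSME3, on the brightest probe sets, from -0.088 to 0.15, so both changed sign. With probe sets averaged, the ratio of PSME1 to PSME3 was 0.39 (0.73 with suffix x left out), that of PSMB10 to PSMB7 -0.17 and PSMB7 itself 0.15. Some members also changed sign. PSMD9 turned to 0.057 with probe sets averaged and to 0.0074 with the ACTB covariate. Its leave-one-out range ran from -0.049 to 0.017. With the ACTB covariate PSME3, at -0.22 in the fit without it, turned to 0.091, and PSMB10 to 0.037. Leave-one-out ranges were -0.047 to 0.0043 for PSMB10, -0.34 to 0.031 for PSME4 and -0.13 to 0.042 for PSMG4. The causes were not tested.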
